A study of Mus musculus with 24 samples.

Results

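B cells display a changing set of surface and Fc receptor-related proteins as they mature, and 9 genes of this kind are described here: Ms4a1, Cd22, Cd72, Cr2, Fcer2a, Fcrla, Fcmr, Cd38 and Cd24a. They were chosen by gene symbol with earlier results of these data known, and all 9 were found among the 24421 genes of the deposited count files. Poly(A) RNA was sequenced from 2 sorted bone marrow populations. The first, common lymphoid progenitors (CLPs), was gated as Lin-IL-7R+. The second, B cell progenitors, was gated as B220+IgM-IL-7R+. Both were taken in 4 genotypes with 3 mice each, which gave 24 libraries. The genotypes were Plcg1+/+Plcg2+/+ with both enzymes, Plcg1-/-Plcg2+/+ without PLCγ1, Plcg1+/+Plcg2-/- without PLCγ2, and Plcg1-/-Plcg2-/- without either.

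All groups came from adult mice of mixed 129 and C57BL/6 background and either sex that carried the MxCre transgene, driven by the interferon-inducible Mx promoter, and a Rosa-YFP reporter, and that had received poly(I-C). In the groups written Plcg1-/-, Cre deleted floxed Plcg1 alleles, whereas Plcg2 was lost in the germ line. Donor bone marrow was grown in lethally irradiated CD45.1+ wild-type recipients before donor-type CD45.2+ cells were sorted. The recipients still have their own stroma and any host cells that survived irradiation, and n counts mice as the labels give them, with the number of donors not stated. The comparisons ask how losing either or both of these enzymes changes gene expression in early B lymphoid cells.

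PLCγ1 and PLCγ2 cleave a membrane phospholipid after receptor stimulation and release diacylglycerol and inositol trisphosphate, which activate protein kinase C and raise cytosolic calcium. In the B lineage they act downstream of the B cell receptor and its precursor form, the pre-BCR, and the study examined them downstream of the IL-7 receptor. The 9 genes fall into several roles. Cd22, a lectin that binds sialic acid, and Cd72, a C-type lectin, carry inhibitory motifs that dampen B cell receptor signalling. Cr2 encodes CD21, a complement receptor, and Ms4a1 encodes CD20, a membrane-spanning protein of B cells. Fcer2a encodes CD23, the low-affinity IgE receptor, Fcmr encodes the Fc receptor for IgM, and Fcrla encodes an Fc receptor-like protein that stays inside the cell. Cd38 encodes an ectoenzyme that uses NAD, and Cd24a encodes heat-stable antigen, a small glycoprotein with a lipid anchor. CD20, CD21 and CD23 are best known from later B cell stages, whereas CD24 is already present on pro-B cells.

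In B cell progenitors that lacked both enzymes, 5 of the 9 genes fell: Fcmr 13.6-fold, Fcrla 9.91-fold, Cd38 3.64-fold, Cd24a 3.24-fold and Cd22 3.08-fold. Of all genes tested, 0.893% passed in either direction, and leaving out 1 library gave 2 to 6 calls among the 9. Cd72, Cr2 and Fcer2a were also below every Plcg1+/+Plcg2+/+ library, a pattern shown by 10.2% of all genes. They did not pass the test, Cd72 narrowly, and Ms4a1 overlapped with the Plcg1+/+Plcg2+/+ libraries. In CLPs none of the 9 passed, against 0.0921% of all genes, although 8 of the 9 estimates pointed down. Neither deficiency alone moved any of the 9 past the threshold of the edgeR test in either population.

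Promoter sequence is shown for Fcmr, Fcrla, Cd22 and Cd72, the lectin and Fc receptor-related genes with the smallest adjusted p in that comparison among those that had an entry. Cd38, the ectoenzyme gene, had a smaller adjusted p than Cd72 and an entry, but its sequence is not shown. RefSeq (GRCm38.p6) listed 9 promoters for 7 of the 9 genes, and each was read over the 250 bases before the listed start. Fcmr lies at chr1:130865527-130865776 on the plus strand, Fcrla at chr1:170927584-170927833, Cd72 at chr4:43454627-43454876 and Cd22 at chr7:30879029-30879278, each of these 3 on the minus strand. The start used for Fcrla, Cd72 and Cd22 lies inside the gene's annotated span. Sequences run 5′ to 3′ on the gene's strand, and capitals mark matches to any of the 7 motifs searched on both strands.
Fcmr: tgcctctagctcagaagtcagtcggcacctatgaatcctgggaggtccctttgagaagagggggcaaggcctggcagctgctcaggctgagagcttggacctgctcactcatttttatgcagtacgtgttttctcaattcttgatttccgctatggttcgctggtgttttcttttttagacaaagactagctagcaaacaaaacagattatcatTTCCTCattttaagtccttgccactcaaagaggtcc
Fcrla: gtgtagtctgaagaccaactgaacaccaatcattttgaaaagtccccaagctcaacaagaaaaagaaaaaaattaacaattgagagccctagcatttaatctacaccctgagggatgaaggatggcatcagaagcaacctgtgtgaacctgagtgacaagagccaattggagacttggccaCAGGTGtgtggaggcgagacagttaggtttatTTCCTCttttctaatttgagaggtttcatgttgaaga
Cd72: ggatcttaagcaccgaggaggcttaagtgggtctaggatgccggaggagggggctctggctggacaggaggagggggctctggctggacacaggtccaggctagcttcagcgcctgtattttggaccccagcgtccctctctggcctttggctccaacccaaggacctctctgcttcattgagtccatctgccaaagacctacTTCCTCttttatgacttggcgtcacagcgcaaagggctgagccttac
Cd22: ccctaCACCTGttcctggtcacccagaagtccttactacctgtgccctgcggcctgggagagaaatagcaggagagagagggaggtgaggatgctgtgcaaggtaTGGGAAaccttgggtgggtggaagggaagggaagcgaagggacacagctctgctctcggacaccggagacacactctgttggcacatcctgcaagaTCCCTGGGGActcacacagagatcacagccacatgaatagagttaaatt

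The PU.1 core GAGGAA was found in 3 of the 9 promoters, those of Fcmr, Fcrla and Cd72. In each case it was on the reverse strand, starting 36, 37 and 47 bases upstream of the listed start. This motif was held by 23.3% of the 32851 promoters of the same length in the table. The EBF1 palindrome (TCCC, any 2 bases, GGGA), held by 0.779% of all promoters, was found in Cd22 alone, 49 bases upstream. The E-box CAGGTG, held by 17.2%, was found in Cd22, Cr2, Fcer2a and Fcrla, and the Ikaros motif TGGGAA, held by 21.6%, in Cd22, Cd38, Cr2 and Fcer2a. The NFAT core TTTCCA, held by 18.6%, was found in Fcer2a only. The NF-kB motif (GGGA, any 2 bases, TTCC; 1.21%) and the FOXO motif GTAAACA (3.17%) were found in none of the 9 promoters. These are matches of letters and not measured sites.

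In the GRCm38 build of the counts (mm10), Ms4a1 spans chr19:11249679-11266149, Cd22 chr7:30865404-30880342, Cd72 chr4:43447724-43455102, Cr2 chr1:195136811-195176880 and Fcer2a chr8:3680280-3694174. Fcrla spans chr1:170917594-170932216, Fcmr chr1:130865777-130880790, Cd38 chr5:43868809-43912374 and Cd24a chr10:43579169-43584265. Cr2, Fcrla and Fcmr are thus on the same chromosome.

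CLP libraries held 4232345 to 33219995 reads on genes and B cell progenitor libraries 1479582 to 25057223, and 59.9% to 87.3% of the reads of the latter fell on no gene, against 17.9% to 45.2% in CLPs. Levels are given as counts per 1000000 reads on genes (CPM) after trimmed-mean (TMM) scaling, and 3 reads correspond to 0.0903 to 2.03 CPM depending on the library. Whole-gene counts of the targeted genes in B cell progenitors differed by 0.46 in log2 for Plcg1 (edgeR adjusted p = 0.594) and by -1.35 for Plcg2 (adjusted p = 0.00251) between Plcg1-/-Plcg2-/- and Plcg1+/+Plcg2+/+ libraries, and such counts do not show the loss of single exons. The 12 Plcg1-/- libraries held Xist at 1290 CPM or more, against at most 742 CPM in the other 12, and were lower in every Y-linked gene examined. A difference tied to sex therefore goes with Plcg1 genotype and cannot be told apart from it, except between genotypes that share a Plcg1 genotype. The summed level of 8 B lineage markers was 3370 to 4750 CPM in Plcg1+/+Plcg2+/+ B cell progenitors and 2230 to 7800 CPM in Plcg1-/-Plcg2-/- ones. This sum joins genes that went opposite ways. In the same order, mean Pax5 was 184 and 105 CPM. Mean Rag1 was 832 and 1190 CPM, Igll1 432 and 887 CPM and Vpreb1 203 and 474 CPM. Of the 8 estimates, 3 were below 0 and none passed with edgeR. CLP libraries held the 8 markers as well. The first Plcg1+/+Plcg2+/+ CLP library stood apart with a sum of 861 CPM, against 5110 and 3850 CPM in the other mice of its group.

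**Figure D1:**
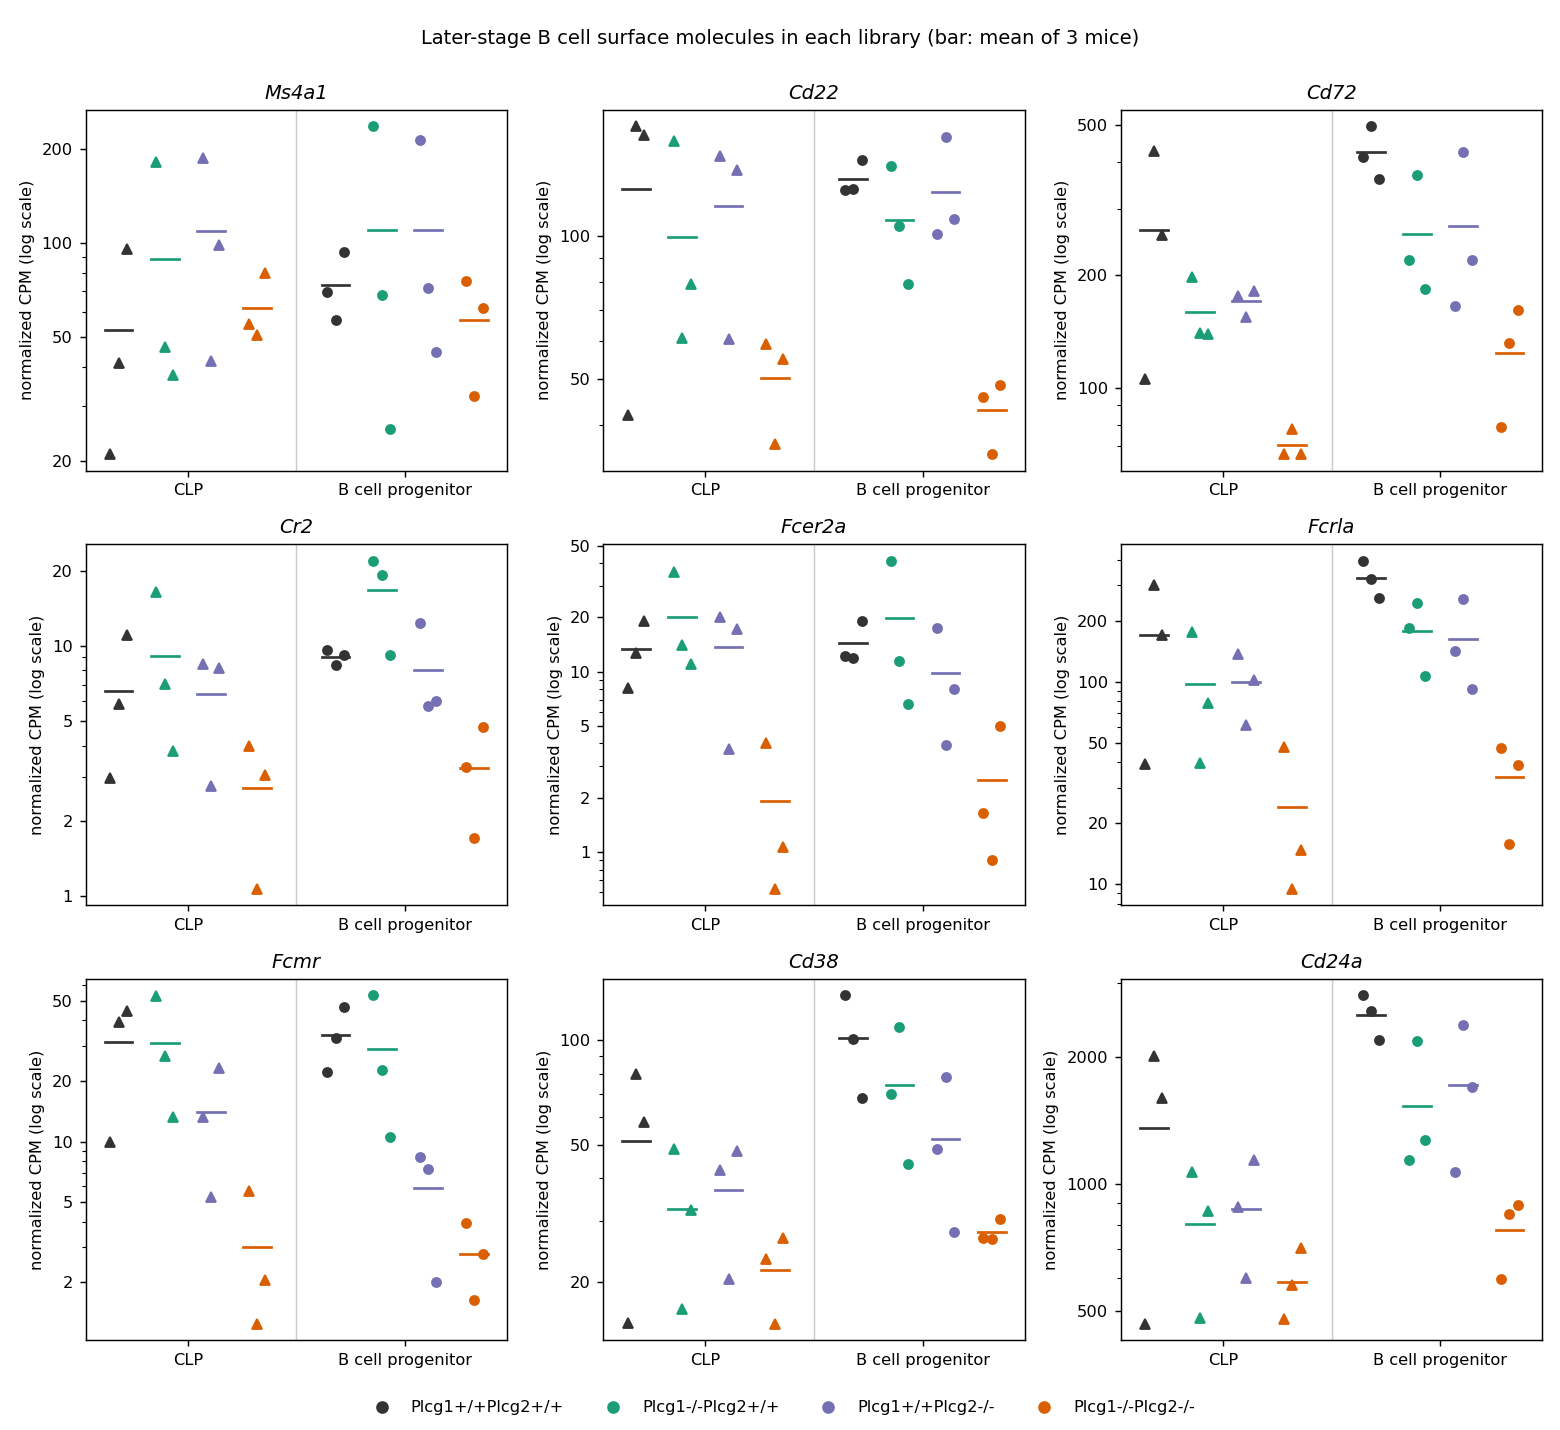
Normalized CPM on a log scale for each of the 9 genes in each of the 24 libraries (triangles, CLP; circles, B cell progenitor; colours, genotype; bars, mean of 3 mice). In B cell progenitors the Plcg1-/-Plcg2-/- libraries lie below the Plcg1+/+Plcg2+/+ libraries for every gene except Ms4a1.

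Per kilobase of annotated exon, Cd24a was highest of the 9 genes in B cell progenitors with both enzymes, at 977 ± 119 CPM per kilobase (SD, n = 3). Fcrla followed at 187 ± 39.6, Cd72 at 124 ± 20.2, Cd22 at 26.2 ± 2.24, Cd38 at 26 ± 8.61, Fcmr at 19.5 ± 7.14, Ms4a1 at 11.8 ± 3.04, Fcer2a at 4.66 ± 1.29 and Cr2 at 1.12 ± 0.0788 CPM per kilobase. Cd22, Cd38 and Fcmr overlapped in range, as did Fcmr and Ms4a1. CD21 and CD23 were therefore the scarcest of these messages in IgM- progenitors, and CD24 the most abundant.

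The same genes ranked alike at the top and the bottom in Plcg1+/+Plcg2+/+ CLPs, where Cd24a stood at 527 ± 310, Fcrla at 97.4 ± 75 and Cd72 at 76.9 ± 46.9 CPM per kilobase (SD, n = 3). Fcer2a, at 4.31 ± 1.78, and Cr2, at 0.818 ± 0.509 CPM per kilobase, were again lowest. The SD was larger relative to the mean than in B cell progenitors for each of these genes, and the library low in B lineage markers was the lowest of its group for all 9 genes.

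The level of the inhibitory co-receptor Cd22 was 125, 126 and 145 CPM in Plcg1+/+Plcg2+/+ B cell progenitors and 45.8, 34.6 and 48.5 CPM in Plcg1-/-Plcg2-/- ones. The groups did not overlap, and the gap exceeded the spread within either. Cd22 fell by 1.62 on the log2 scale (SE 0.24, edgeR quasi-likelihood test, adjusted p = 0.00747 over the 15001 genes tested).

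Cd72, the other inhibitory lectin, stood at 413, 498 and 361 CPM in Plcg1+/+Plcg2+/+ and at 78.9, 132 and 161 CPM in Plcg1-/-Plcg2-/- B cell progenitors. Every library lacking both enzymes was below every Plcg1+/+Plcg2+/+ library. The difference of -1.77 in log2 (SE 0.38) had an edgeR adjusted p of 0.0528 and so missed the threshold of 0.05. Cd72 passed in each of 5 fits with another setting, with adjusted p from 0.000193 to 0.0481, and in 3 of the 12 fits that left out 1 library, where adjusted p reached 0.209.

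Fcmr, the IgM Fc receptor gene, showed the largest difference of the 9. It was at 22.2, 32.7 and 46.9 CPM in Plcg1+/+Plcg2+/+ B cell progenitors and at 3.93, 1.63 and 2.78 CPM in Plcg1-/-Plcg2-/- ones, the latter from 12 to 38 reads a library. The groups lay far apart, and the estimate was -3.77 in log2 (SE 0.61, edgeR adjusted p = 0.0133).

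Fcrla was at 398, 322 and 260 CPM in Plcg1+/+Plcg2+/+ and at 47.1, 15.7 and 38.8 CPM in Plcg1-/-Plcg2-/- B cell progenitors. Its abundance made this the drop resting on the most reads among the Fc receptor-related genes, with at least 144 reads in each library. The estimate was -3.31 in log2 (SE 0.48, edgeR adjusted p = 0.00747).

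Fcer2a, the IgE receptor gene, was at 12.3, 11.9 and 19 CPM in Plcg1+/+Plcg2+/+ and at 1.64, 0.9 and 5.03 CPM in Plcg1-/-Plcg2-/- B cell progenitors. The groups did not overlap, but the latter rested on 5 to 38 reads a library. The difference of -2.55 in log2 (SE 0.80, edgeR adjusted p = 0.209) did not pass.

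Cr2, the complement receptor gene, was even in Plcg1+/+Plcg2+/+ B cell progenitors, at 9.63, 8.37 and 9.19 CPM, and was at 3.27, 1.71 and 4.76 CPM in Plcg1-/-Plcg2-/- ones. Again no library of the latter reached the former. The difference of -1.53 in log2 (SE 0.44, edgeR adjusted p = 0.172) did not pass.

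Cd38, the NAD-consuming ectoenzyme, was at 135, 101 and 68 CPM in Plcg1+/+Plcg2+/+ and at 26.8, 26.6 and 30.4 CPM in Plcg1-/-Plcg2-/- B cell progenitors. The libraries lacking both enzymes were nearly equal, while those with both varied. Cd38 fell by 1.86 on the log2 scale (SE 0.39, edgeR adjusted p = 0.047), close to the threshold.

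Cd24a, the most abundant of the 9, was at 2800, 2570 and 2190 CPM in Plcg1+/+Plcg2+/+ and at 597, 849 and 892 CPM in Plcg1-/-Plcg2-/- B cell progenitors. The groups were far apart, and Cd24a fell by 1.70 on the log2 scale (SE 0.31, edgeR adjusted p = 0.025). Ms4a1, in contrast, was at 69.4, 56.6 and 93.6 CPM against 75.6, 32.3 and 61.9 CPM. These ranges overlapped, and the difference of -0.39 in log2 (SE 0.69, edgeR adjusted p = 0.839) was smaller than its error.

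The 5 genes that fell compare with 0.893% of all 15001 genes that passed the test in either direction and 0.673% that passed downward. Of the 9 genes, 8 had all 3 Plcg1-/-Plcg2-/- libraries below all 3 Plcg1+/+Plcg2+/+ libraries, a pattern shown by 10.2% of all genes tested. The median log2 difference was -1.77 over the 9 genes and -0.02 over all genes. DESeq2 called 8 of the 9, all but Ms4a1, against 3.67% of all genes it tested. The 9 genes were chosen with earlier results of these same libraries known, so their direction is not independent evidence. In sorted bulk RNA, fewer cells that express a gene and less RNA per cell cannot be told apart.

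Cd22 and Fcrla passed in each of the 12 fits that left out 1 B cell progenitor library, Fcmr in 9, Cd24a in 7 and Cd38 in 4. The 5 calls dropped to 3 without any of the Plcg1+/+Plcg2+/+ libraries or the first Plcg1-/-Plcg2-/- library, and to 2 without the second or the third of the latter.

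**Figure D2:**
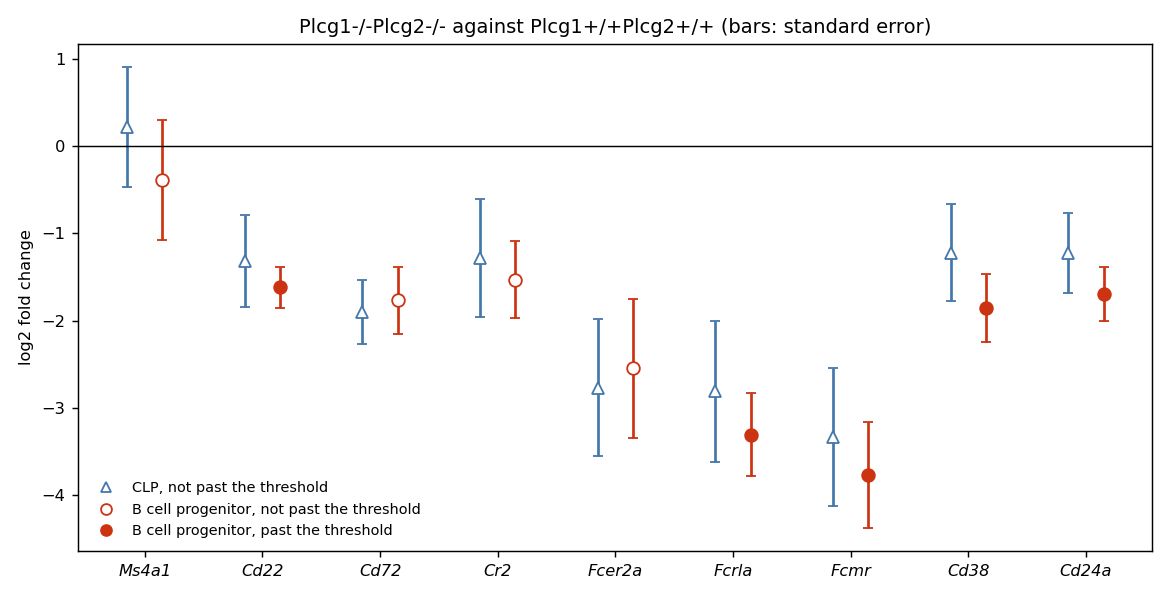
Log2 fold change of each of the 9 genes in Plcg1-/-Plcg2-/- against Plcg1+/+Plcg2+/+ cells (triangles, CLP; circles, B cell progenitor; bars, standard error; filled, past the threshold). The estimates lie below 0 for 9 of 9 genes in B cell progenitors and for 8 of 9 in CLPs, with Fcmr and Fcrla lowest in both populations.

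In CLPs, Cd72, the gene of the 9 with the smallest p, was at 106, 427 and 256 CPM in Plcg1+/+Plcg2+/+ and at 66.7, 78 and 66.8 CPM in Plcg1-/-Plcg2-/- libraries. Fcmr was at 9.97, 39.4 and 44.4 CPM against 5.72, 1.25 and 2.06 CPM. Fcer2a was at 8.17, 12.7 and 19.1 CPM against 4.05, 0.624 and 1.07 CPM. For these 3 genes no Plcg1-/-Plcg2-/- library reached a Plcg1+/+Plcg2+/+ one, a pattern shown by 7.32% of the 15209 genes tested in CLPs.

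The log2 differences were -1.90 for Cd72, -3.34 for Fcmr and -2.77 for Fcer2a, with edgeR adjusted p of 0.115, 0.218 and 0.37. The remaining differences were -2.81 for Fcrla, -1.32 for Cd22, -1.28 for Cr2, -1.22 for Cd38, -1.22 for Cd24a and 0.22 for Ms4a1. Fcrla spread widely in both groups, at 39.1, 301 and 170 CPM against 47.6, 9.45 and 14.8 CPM, and its lowest Plcg1+/+Plcg2+/+ value came from the library that stood apart. With edgeR, 0 of the 9 genes passed, against 0.0921% of all genes, while 6 had an unadjusted p under 0.05, against 7.52% of all genes. DESeq2 called Cd72, Fcer2a and Fcmr, against 1.16% of the genes it tested.

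Without the CLP library low in B lineage markers, Cd72 passed at -2.30 in log2 (edgeR adjusted p = 0.00455), Fcmr was at -3.78 (adjusted p = 0.0741), Fcrla at -3.30 (adjusted p = 0.114) and Ms4a1 turned to -0.17. The other estimates stayed below 0 and did not pass. The change between Plcg1-/-Plcg2-/- and Plcg1+/+Plcg2+/+ cells was itself compared between the populations in a fit over all 24 libraries. The difference ranged from -0.64 to 0.22 in log2 over the 9 genes, and none passed the edgeR test, where 0% of 17212 genes passed. No member had an unadjusted p under 0.05, against 1.37% of all genes, and DESeq2 called 0 of the 9. The data thus do not separate the response of these genes in B cell progenitors from that in CLPs.

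Loss of PLCγ1 alone gave estimates from -0.85 to 0.91 in log2 for the 9 genes in B cell progenitors. Fcrla and Cd24a lay below every Plcg1+/+Plcg2+/+ library, but the share of all genes with that pattern was not counted here. Cr2 was at 21.9, 19.2 and 9.22 CPM in Plcg1-/-Plcg2+/+ libraries, 0.91 higher in log2 (edgeR adjusted p = 0.467). Cd24a was at 1140, 2180 and 1270 CPM, 0.70 lower in log2 (difference -0.70, adjusted p = 0.467). These were the only genes of the 9 with an unadjusted p under 0.05, against 9.93% of all genes. None of the 9 passed, against 0.06% of all genes, DESeq2 called 0 of the 9, and the median difference was -0.26.

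Loss of PLCγ2 alone was followed by lower estimates for 8 of the 9 genes in B cell progenitors, and again none passed with edgeR, against 0.0467% of all genes. Fcmr stood out with 8.36, 7.3 and 2 CPM in Plcg1+/+Plcg2-/- libraries, each below every Plcg1+/+Plcg2+/+ library. Its lowest value rested on 3 reads in the shallowest library. The difference was -2.38 in log2, with an unadjusted edgeR p of 0.00133, an adjusted p of 0.919 and a call by DESeq2, which called 0.126% of genes.

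Fcrla, at 142, 257 and 92 CPM and -0.96 in log2, and Cd38, at 48.6, 78.6 and 28 CPM and -0.91 in log2, were the other genes with an unadjusted p under 0.05, against 2.84% of all genes. Fcrla, like Fcmr, lay below every Plcg1+/+Plcg2+/+ library, and the share of all genes with that pattern was not counted here either. Cd22, at 101, 162 and 109 CPM, was mixed with the Plcg1+/+Plcg2+/+ values. Among all B cell progenitor libraries, those lacking both enzymes held at most 48.5 CPM of Cd22 and the others at least 79.1 CPM. How many of all genes split the libraries in this way was not counted. The median difference over the 9 genes was -0.63, against 0.03 over all genes.

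**Figure D3:**
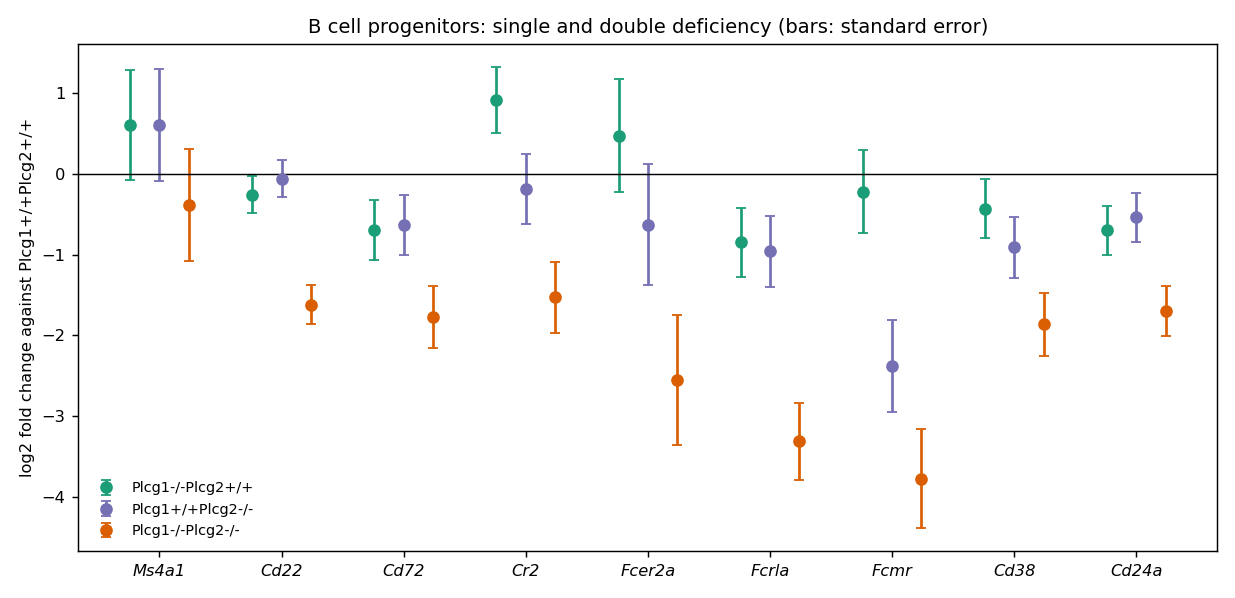
Log2 fold change of each of the 9 genes against Plcg1+/+Plcg2+/+ B cell progenitors, for cells without PLCγ1 (green), without PLCγ2 (purple) and without either (orange) (bars, standard error). The estimate for Plcg1-/-Plcg2-/- is the lowest of the 3 for every gene; all share the same control libraries.

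Set against cells that lacked only PLCγ1, which were alike in sex-linked expression, B cell progenitors lacking both enzymes had lower estimates for all 9 genes. Cd22 was at 141, 105 and 79.1 CPM in Plcg1-/-Plcg2+/+ libraries, and fell by 1.36 on the log2 scale in Plcg1-/-Plcg2-/- ones (edgeR adjusted p = 0.0465). Fcmr was at 53.3, 22.8 and 10.6 CPM and fell by 3.55 (adjusted p = 0.0465). These 2 of 9 calls compare with 0.213% of all genes, and both were lost with DESeq2's size-factor method in edgeR or when the groups were fitted alone. They stood in only 2 of the 12 fits that left out 1 library, those without the second Plcg1+/+Plcg2-/- library (4 calls) and without the third Plcg1-/-Plcg2+/+ library (2 calls), and 0 of the 9 passed in the other 10.

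Cr2 followed with a difference of -2.44 in log2 (edgeR adjusted p = 0.0622) and Fcrla with -2.46 (adjusted p = 0.0663), the latter from 185, 246 and 107 CPM. Fcer2a, at 41.3, 11.5 and 6.66 CPM, differed by -3.02, Cd38 by -1.44, Cd72 by -1.07, Cd24a by -1.0 and Ms4a1 by -0.99 in log2. All but Ms4a1 were without overlap, a pattern shown by 10.5% of all genes. DESeq2 called 7 of the 9, against 5.35% of genes.

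Set against cells that lacked only PLCγ2, Cd22 fell by 1.56 on the log2 scale (edgeR adjusted p = 0.0294) and was the only 1 of the 9 to pass, against 0.153% of all genes. Fcrla differed by -2.34 (adjusted p = 0.109), Fcer2a by -1.92, Fcmr by -1.38, Cr2 by -1.34, Cd24a by -1.16, Cd72 by -1.14, Ms4a1 by -0.99 and Cd38 by -0.96. Cd22, Cd72, Cr2, Fcrla and Cd24a were without overlap, against 7.65% of all genes, whereas Fcmr, already low without PLCγ2, overlapped. DESeq2 called 3 of the 9, against 1.07% of genes. Cd22 was thus the only 1 of the 9 genes past the threshold against each of the other 3 genotypes, and its call against cells lacking only PLCγ2 was lost when those groups were fitted alone. It was also lost without any of the Plcg1+/+Plcg2+/+ or Plcg1-/-Plcg2-/- libraries or the second Plcg1+/+Plcg2-/- library, which left 0 calls.

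Whether the change without both enzymes differed from the sum of the changes without either was tested as a departure from additivity on the log2 scale. In B cell progenitors the departure was negative for all 9 genes, with a median of -1.30, and was -1.30 for Cd22 (edgeR adjusted p = 0.187), -2.25 for Cr2 (adjusted p = 0.187), -2.40 for Fcer2a and -1.5 for Fcrla. None passed, against 0.0267% of all genes, while these 4 had an unadjusted p under 0.05, against 15.3% of all genes. DESeq2 called Cd22 and Cr2, against 4.28% of genes. In CLPs none passed, against 0.0197% of all genes, 1 of the 9, Fcer2a, had an unadjusted p under 0.05, against 4.77%, and DESeq2 called 0 of the 9.

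In CLPs the separate losses also gave no call with edgeR. Without PLCγ1 the median difference was -0.33, no gene of the 9 passed, against 0.00658% of all genes, and none had an unadjusted p under 0.05, against 2.85%. Without PLCγ2 the median was -0.47, none passed, against 0% of all genes, and none had an unadjusted p under 0.05, against 3.92%. DESeq2 called 0 of the 9 in either. CLPs lacking both enzymes were lower in all 9 estimates than CLPs lacking only PLCγ1, with a median of -1.18, no edgeR call against 0.0263% of all genes, 5 genes with an unadjusted p under 0.05 against 4.29%, and DESeq2 calls for Fcer2a and Fcmr against 0.7%. Against CLPs lacking only PLCγ2 the median was -1.21, with no edgeR call against 0.0526% of all genes, 5 genes with an unadjusted p under 0.05 against 7.54%, and a DESeq2 call for Fcer2a against 0.712%.

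Within a genotype, none of the 9 genes passed the edgeR test between B cell progenitors and CLPs. In Plcg1+/+Plcg2+/+ cells all 9 estimates were higher in B cell progenitors, with a median of 0.47 in log2, but none passed, and Cd24a alone had an unadjusted p under 0.05. The medians were 0.7 in Plcg1-/-Plcg2+/+, 0.32 in Plcg1+/+Plcg2-/- and 0.32 in Plcg1-/-Plcg2-/- cells, with 0 of 9 calls by edgeR and by DESeq2 in each genotype. Of all genes, 3.5%, 3.78%, 3.21% and 3.24% passed in these 4 comparisons, in the order of genotypes just given. An unadjusted p under 0.05 was given, in the same order, by 16.1%, 26.5%, 16.2% and 14.3% of all genes and by 1, 2, 1 and 1 of the 9.

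Mice differed in some of these genes in both populations at once. Ms4a1 reached 236 CPM in B cell progenitors and 181 CPM in CLPs of the first Plcg1-/-Plcg2+/+ mouse, and 213 and 186 CPM in the first Plcg1+/+Plcg2-/- mouse. These 4 libraries held more Ms4a1 than any other of the 24. Fcer2a was likewise highest in the first Plcg1-/-Plcg2+/+ mouse, at 41.3 CPM in B cell progenitors and 35.6 CPM in CLPs. Several mice departed from this for Fcrla. The first Plcg1+/+Plcg2+/+ mouse held 398 CPM in B cell progenitors and 39.1 CPM in CLPs. In the same order, the second Plcg1-/-Plcg2+/+ mouse held 246 and 39.9 CPM, and the second Plcg1+/+Plcg2-/- mouse 257 and 61.5 CPM. The third Plcg1-/-Plcg2-/- mouse held 38.8 and 14.8 CPM.

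**Figure D4:**
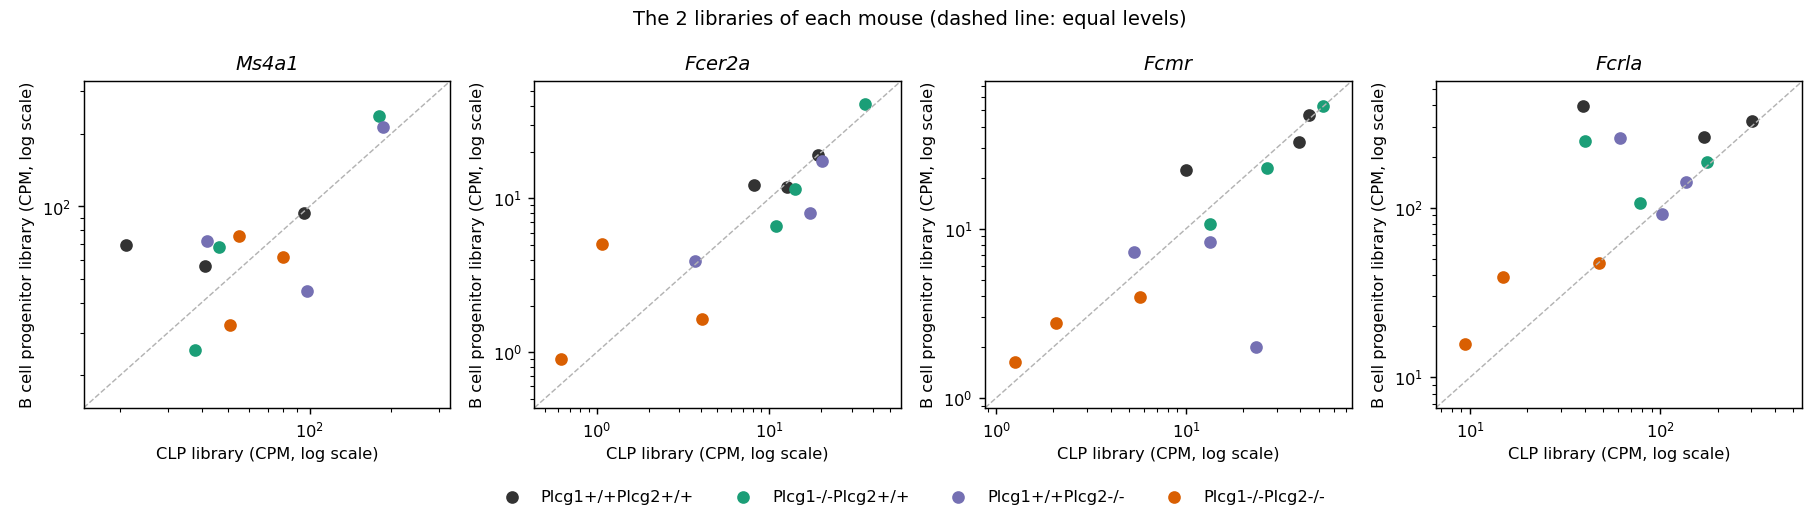
Normalized CPM in the B cell progenitor library against the CLP library of the same mouse for Ms4a1, Fcer2a, Fcmr and Fcrla, on log scales (points, 12 mice; colours, genotype; dashed line, equal levels). Most points lie near the line, and the third Plcg1+/+Plcg2-/- mouse lies farthest below it for Fcmr, at 23.3 CPM in CLPs and 2 CPM in B cell progenitors.

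Across the 12 B cell progenitor libraries, which share genotype groups and differ in depth, the 9 genes did not all vary together. On log2 CPM, Cd72 and Cd24a had a Pearson r of 0.973, Cd22 and Fcrla of 0.927, and Cr2 and Fcer2a of 0.916, whereas Ms4a1 had -0.047 with Cd24a and 0.0415 with Cd72. Among 14224 other genes, the pattern most like that of Fcrla was Gpr155 (r = 0.991), that of Cd24a Mturn (0.985), that of Cd38 Dnajc7 (0.985), that of Cd72 Fmn2 (0.982) and that of Cd22 B3gnt5 (0.974). For Fcmr it was Col5a3 (0.932) and for Ms4a1 D8Ertd82e (0.897). In CLPs, Cd38 and Cd24a had an r of 0.955, and the gene most like Fcmr was Fcer2a (0.947).

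Other surface molecules of B cells, a list of 20 that holds the signalling chains Cd79a and Cd79b and neighbours, had a median log2 difference of -0.14 in B cell progenitors without either enzyme against those with both. None of the 20 passed with edgeR, against 0.893% of all genes, and 11 were below 0. An unadjusted p under 0.05 was given by 3 of the 20, against 12.3% of all genes. Its largest differences were -2.97 for Cd83 (adjusted p = 0.0596), an activation marker, and -1.44 for Fcrl5 (adjusted p = 0.623), an Fc receptor-like gene. Cxcr5, a chemokine receptor of mature B cells, stood at 14.7 ± 3.73 CPM in Plcg1+/+Plcg2+/+ and at 12.8 ± 7.7 CPM in Plcg1-/-Plcg2-/- libraries (SD, n = 3). With Fcer2a, Cr2 and Ms4a1 it makes up the 4 markers of IgM+ or later B cells that were tested. These summed to 87.5 to 140 CPM in Plcg1+/+Plcg2+/+ and 56.4 to 87.4 CPM in Plcg1-/-Plcg2-/- libraries. All 4 estimates were below 0, with a median of -0.96 in log2, and none passed with edgeR.

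Of 12 surface molecules of earlier stages, 1 fell, Il2ra, which encodes CD25, a pre-B cell marker (log2 difference -3.40, edgeR adjusted p = 0.00818), and the list's median was 0.29. Of all genes, 0.893% passed in this comparison. None of 6 pre-BCR and recombination genes passed, none was below 0, and their median was 0.81. Their largest differences were 1.35 for Dntt (adjusted p = 0.49), which adds nucleotides at V(D)J junctions, and 1.22 for Vpreb1 (adjusted p = 0.379), a surrogate light chain gene. Of 10 B lineage factors, 2 fell, Ikzf3 by 2.08 (adjusted p = 0.0233) and Irf4 by 2.53 (adjusted p = 0.0271), both transcription factors of pre-B cells and later stages, and the median was -0.69. In CLPs no gene of these 4 lists passed with edgeR, against 0.0921% of all genes. Their medians were -0.17, -0.09, 0.39 and -0.29, with 2, 3, 0 and 3 genes at an unadjusted p under 0.05, against 7.52% of all genes.

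**Figure D5:**
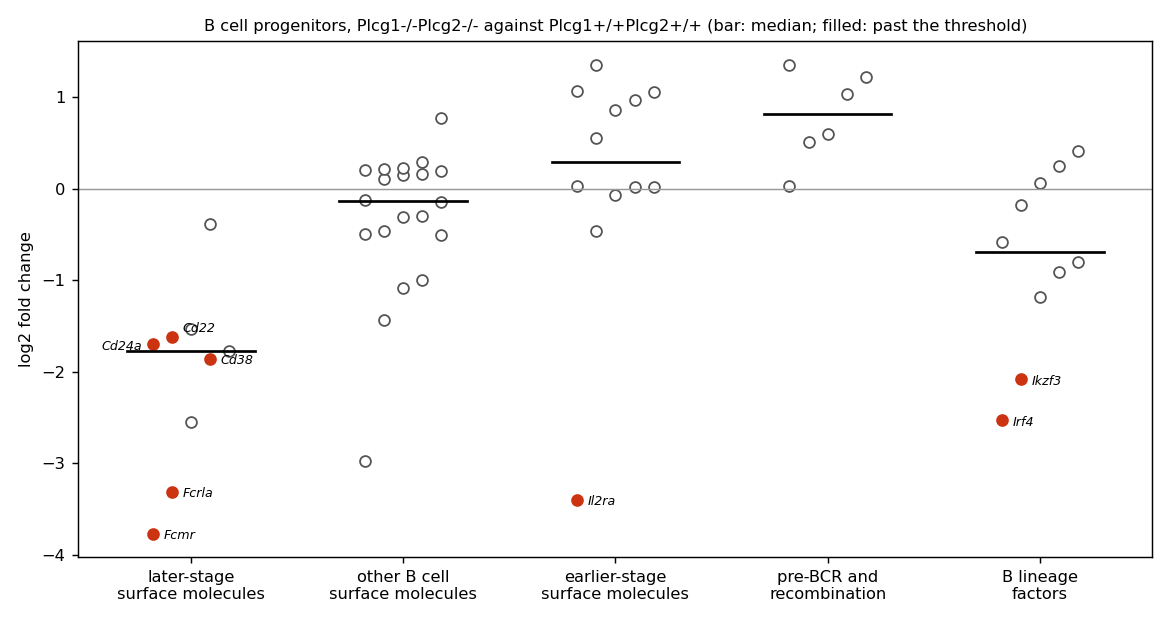
Log2 fold change in Plcg1-/-Plcg2-/- against Plcg1+/+Plcg2+/+ B cell progenitors for the 9 later-stage genes and for 4 other gene lists (points, genes; bars, list medians; filled and named, past the threshold). The median is -1.77 for the 9 genes and lies between -0.69 and 0.81 for the other lists. Stage names are list labels and do not order every gene: CD24 is already present on pro-B cells, and Il2ra of the earlier-stage list encodes a pre-B cell marker. The 9 genes and the lists were chosen with earlier results of these data known, so this contrast is a description only.

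Transcripts of other cells were also counted in these sorted samples. In B cell progenitors, 12 of 13 myeloid markers had a row, with summed levels of 1420 to 4550 CPM in Plcg1+/+Plcg2+/+ and 2670 to 6820 CPM in Plcg1-/-Plcg2-/- libraries and no estimate below 0. The 7 plasmacytoid dendritic cell markers summed to 288 to 497 CPM and 397 to 1230 CPM, and 9 of 10 T and NK cell markers to 59.4 to 101 CPM and 87.9 to 181 CPM. The 4 plasma cell markers summed to 284 to 671 CPM and 655 to 2250 CPM. Most of this was 1 gene, Jchain, with means of 267 and 1060 CPM. Of the 4 estimates 2 were below 0, and the list's median was -0.03 in log2. The 7 erythroid markers summed to 22.6 to 120 CPM and 70.3 to 279 CPM, with 4 globin genes at 0 in every one of these libraries. Of these markers Sdc1, a plasma cell marker, fell and no other passed. Higher sums were not particular to loss of both enzymes. Myeloid sums were 2280 to 7680 CPM in B cell progenitors lacking only PLCγ1 and 1440 to 7620 CPM in those lacking only PLCγ2. T and NK sums were 108 to 225 CPM and 47.9 to 183 CPM in the same order. Neither genotype had a myeloid estimate below 0 against Plcg1+/+Plcg2+/+. The part of these other-cell transcripts in the lower levels of the 9 genes was not tested.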

How the data were processed

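The authors sequenced poly(A) RNA (NEBNext Ultra) and, per the labels, aligned reads with STAR 2.5.0a to mm10. The authors deposited raw read counts per gene for each of the 24 libraries, and the counter and its strand setting are not given in the sources used here, so reads of antisense or overlapping genes cannot be separated. Rows for reads on no gene or on several genes were left out of library sizes.

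Counts were tested with edgeR 4.0.16 (R 4.3.3; TMM scaling, filterByExpr, quasi-likelihood test). Genotypes were compared in 1 fit per population of 12 libraries, over 15209 genes (CLPs) or 15001 genes (B cell progenitors), and populations in 1 fit of 24 libraries over 17212 genes. A gene passed at a Benjamini-Hochberg adjusted p of 0.05 or less over all genes tested and a log2 fold change of 0.5 or more in size. CPM values are TMM-scaled, and all 9 genes passed the low-count filter in every fit. In simulated data the median estimates were close to the seeded changes. Only genes with many reads were seeded, so this check does not cover genes with few reads. Alternatives were DESeq2 1.42.0, its size factors in edgeR, no low-count filter, the compared groups alone, the adjusted p alone, a replicate block and leaving out each library. Log2 CPM for correlations used a prior count of 2. Motif and sequence data came from RefSeq (GRCm38.p6).

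The 9 genes and all lists were chosen with earlier results of these data known. The 9 genes are always named. Of the other lists, genes that passed are named or, where none did, the 2 with the largest change. Cxcr5 is named in addition, as a marker of IgM+ or later B cells. Ighm, Ighd, Ly6g and Trac were not analysed here. The genes most like Cr2 and Fcer2a in B cell progenitors are not reported here. CLP and B cell progenitor libraries with the same mouse number come from the same mouse. Their deviations from the group means had a mean correlation of 0.201 over 12 pairs (-0.258 to 0.524). Between different mice of a genotype the mean was -0.101. Deviations cancel out within a group, which ties this value to the first, so it is no independent comparison. A block for the mouse changed no call of the 9 genes between populations. Replicates of a group differed by more than counting error (chi-square per degree of freedom 8.28 to 133).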

Additional observations from a re-analysis of the deposited data

How the results depend on the processing

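In Plcg1-/-Plcg2-/- against Plcg1+/+Plcg2+/+ B cell progenitors, 5 of the 9 genes passed, against 0.893% of all genes. With DESeq2's size factors in edgeR 6 passed, against 0.96% of all genes. Without a low-count filter 6 passed, against 0.641%, and with the groups alone 6, against 1.87%. Cd72 was added each time. DESeq2 called 8, against 3.67% of genes, and leaving out 1 library gave 2 to 6. The count of 5 without Cd72 thus held in the reported fit and with the adjusted p alone. Against Plcg1-/-Plcg2+/+ (2 passed), 0 passed with DESeq2's size factors in edgeR and 0 with the groups alone. Without a low-count filter 4 passed, against 0.178% of all genes, and with DESeq2 7, against 5.35%. Leaving out 1 library gave 0 to 4. Against Plcg1+/+Plcg2-/- (1 passed), 0 passed with the groups alone. Without a filter 2 passed, against 0.106% of all genes, and with DESeq2 3, against 1.07%. Leaving out 1 library gave 0 to 1. In B cell progenitors DESeq2 added 1 call for Plcg1+/+Plcg2-/- against Plcg1+/+Plcg2+/+, where it called 0.126% of genes. It added 2 for the departure from additivity, where it called 4.28%. In CLPs, where 0 passed, DESeq2 called 3, 2 and 1 of the 9 in Plcg1-/-Plcg2-/- against Plcg1+/+Plcg2+/+, Plcg1-/-Plcg2+/+ and Plcg1+/+Plcg2-/- libraries. The shares of all genes it called were 1.16%, 0.7% and 0.712%. Leaving out 1 library gave 0 to 1 in the comparison with Plcg1+/+Plcg2+/+. The other counts of calls stayed at 0 under every alternative run. The causes were not tested, except that fits of the groups alone used fewer samples.

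Genotypes share only replicate numbers. Same-numbered libraries of different genotypes had deviations correlated at -0.265 to 0.715 in CLPs and -0.414 to 0.673 in B cell progenitors. With a replicate block, 7 of the 9 genes passed in Plcg1-/-Plcg2-/- against Plcg1+/+Plcg2+/+ B cell progenitors, against 3.67% of all genes, and 4 (Cd22, Cr2, Fcrla and Fcmr) against Plcg1-/-Plcg2+/+, against 0.667% of all genes. Without it, 0.893% and 0.213% of all genes passed. Of single estimates, Ms4a1 changed sign only when 1 library was left out: from 0.22 to -0.17 without the first Plcg1+/+Plcg2+/+ library (and -0.01 without the third Plcg1-/-Plcg2-/- library) in CLPs lacking both enzymes against Plcg1+/+Plcg2+/+, within a range of -0.17 to 1.01, and from -0.99 to 0.32 against Plcg1-/-Plcg2+/+ B cell progenitors without the first library of the latter, within a range of -1.44 to 0.32. Depth limits Fcmr, Fcer2a and Cr2, which rested on 3 to 40 reads in the shallowest or lowest libraries.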
